A study of Mus musculus with 12 samples.

Results

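The integrin chains followed here were 10 genes, Itgb1, Itgb2, Itgb3, Itgb5, Itga2, Itga3, Itga5, Itga6, Itga7 and Itgav, taken by symbol from the 18193 genes that the arrays measured with a probe set of their own. Each gene was read by the brightest probe set (mean of 12 arrays) annotated to that symbol alone, and its other probe sets are given beside it. The cells were MC38, a colon carcinoma line of the mouse, kept in culture, and the labels name no other cell type. Cells received GDC-0623, an inhibitor of the ERK-activating kinase MEK, at 100 nM, or a matching amount of its solvent DMSO. RNA was collected after 24 h or 72 h. This gave 4 groups of 3 arrays: 72 h GDC-0623, 72 h DMSO, 24 h GDC-0623 and 24 h DMSO. All groups come from this 1 line in culture, and the design text calls the 3 samples of a group biological replicates. The question addressed is which integrin transcripts differ when MEK is blocked, and whether an early difference is still there late.

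Integrins are adhesion receptors made of 1 alpha and 1 beta chain, which are joined in the cell before they reach the surface. The pair decides what is bound: the chains encoded by Itga2 and Itgb1 together bind collagen, those of Itga3, Itga6 or Itga7 with Itgb1 bind laminins, and that of Itga5 with Itgb1 binds fibronectin. The chain of Itgav pairs with those of Itgb1, Itgb3, Itgb5, Itgb6 or Itgb8 and recognises the RGD motif of fibronectin, vitronectin and latent TGF-beta. Itgb2 encodes the beta chain of the leukocyte integrins, whose alpha chains are encoded by Itgal, Itgam, Itgax and Itgad. Inside the cell, talin and kindlin activate the beta chain, and FAK and Src family kinases pass the adhesion signal on to pathways that include RAS and ERK.

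The promoter of Itgb5 is shown because Itgb5 was the only 1 of the 10 chains called higher under GDC-0623 at either time. The sequence holds the 250 bases before the annotated start of the gene on the plus strand (RefSeq, GRCm38.p6, chr16:33829415-33829664), with GC boxes in capitals, that is GGGCGG on either strand.
Itgb5 promoter: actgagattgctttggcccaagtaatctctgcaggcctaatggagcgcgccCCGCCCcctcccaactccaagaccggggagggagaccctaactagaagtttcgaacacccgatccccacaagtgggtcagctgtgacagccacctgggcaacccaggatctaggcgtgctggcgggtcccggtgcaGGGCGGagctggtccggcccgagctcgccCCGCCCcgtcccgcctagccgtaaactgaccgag
Promoter windows were held for 6 of the 10 genes, Itgb1, Itgb5, Itga2, Itga3 (a pair of windows), Itga5 and Itgav. Both strands of these 7 windows were searched for 4 motifs: the ETS core CCGGAA, the AP-1 site TGANTCA, the TEAD site GGAATG and the GC box GGGCGG. The Itgb5 window held 3 GC boxes and none of the other motifs. GC boxes were also found in the windows of Itga5 (2), Itgb1 (1) and Itga3 (3 and 1), against 32.7% of all 32851 windows of this length with at least 1. The ETS core stood once, in an Itga3 window (12% of all windows), the TEAD site once, in Itgb1 (12.6%), and the AP-1 site in none (6.75%). The windows of Itga2 and Itgav held none of the 4 motifs. A match of letters is a description of the window, not a bound site.

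Values are log2 expression values obtained by robust multichip averaging (RMA), in which a difference of 1 is a doubling. Array medians lay between 4.63 and 4.7, and values below about 5 are in the background range of these arrays. The median SD of a probe set between arrays of a group was 0.110 at 72 h in GDC-0623, 0.0917 at 72 h in DMSO, 0.0971 at 24 h in GDC-0623 and 0.0850 at 24 h in DMSO. On the first principal component, which held 58.6% of the variance, replicate 1 of 72 h GDC-0623 stood at 77.4, apart from replicates 2 and 3 at 44.8 and 49.8. Transcripts that report ERK output were lower under the drug, 10 of 11 at 72 h and 11 of 11 at 24 h, beside 12.4% and 8.23% of all genes. The 72 h count was 7 without replicate 2 or 3 of 72 h DMSO. Egr1, an immediate early gene, was lower by 5.57 at 72 h and by 4.90 at 24 h on the log2 scale. The epithelial markers expected of a carcinoma were largely in the background range: the list of 11 genes had array means of 3.95 to 4.20 over all groups, the keratin gene Krt18 stood at 2.78 to 2.82 and the E-cadherin gene Cdh1 at 2.61 to 2.72 (group means). Vim, the mesenchymal intermediate filament gene, stood at 13.57 to 13.77. In bulk RNA, fewer cells with a transcript and less of it per cell cannot be told apart.

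Of the 10 chains, 1 was higher and 2 were lower under GDC-0623 at 72 h, and the same 3 genes were called in the same directions at 24 h. Itgb5 was higher, and Itgb2 and Itga6 were lower. At 72 h the call rate over all 18193 genes was 13.8% higher and 12.4% lower, and at 24 h it was 13.3% higher and 8.23% lower, so that the share of chains called was near that of all genes. The other 7 chains did not pass the adjusted threshold of 0.05 at either time (limma, Benjamini-Hochberg over all 45037 probe sets). At an unadjusted p under 0.05 there were 4 chains at 72 h and 6 at 24 h. The median log2 fold change of the 10 chains was −0.03 at 72 h and 0 at 24 h, beside −0.03 for all genes at either time.

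**Figure D1:**
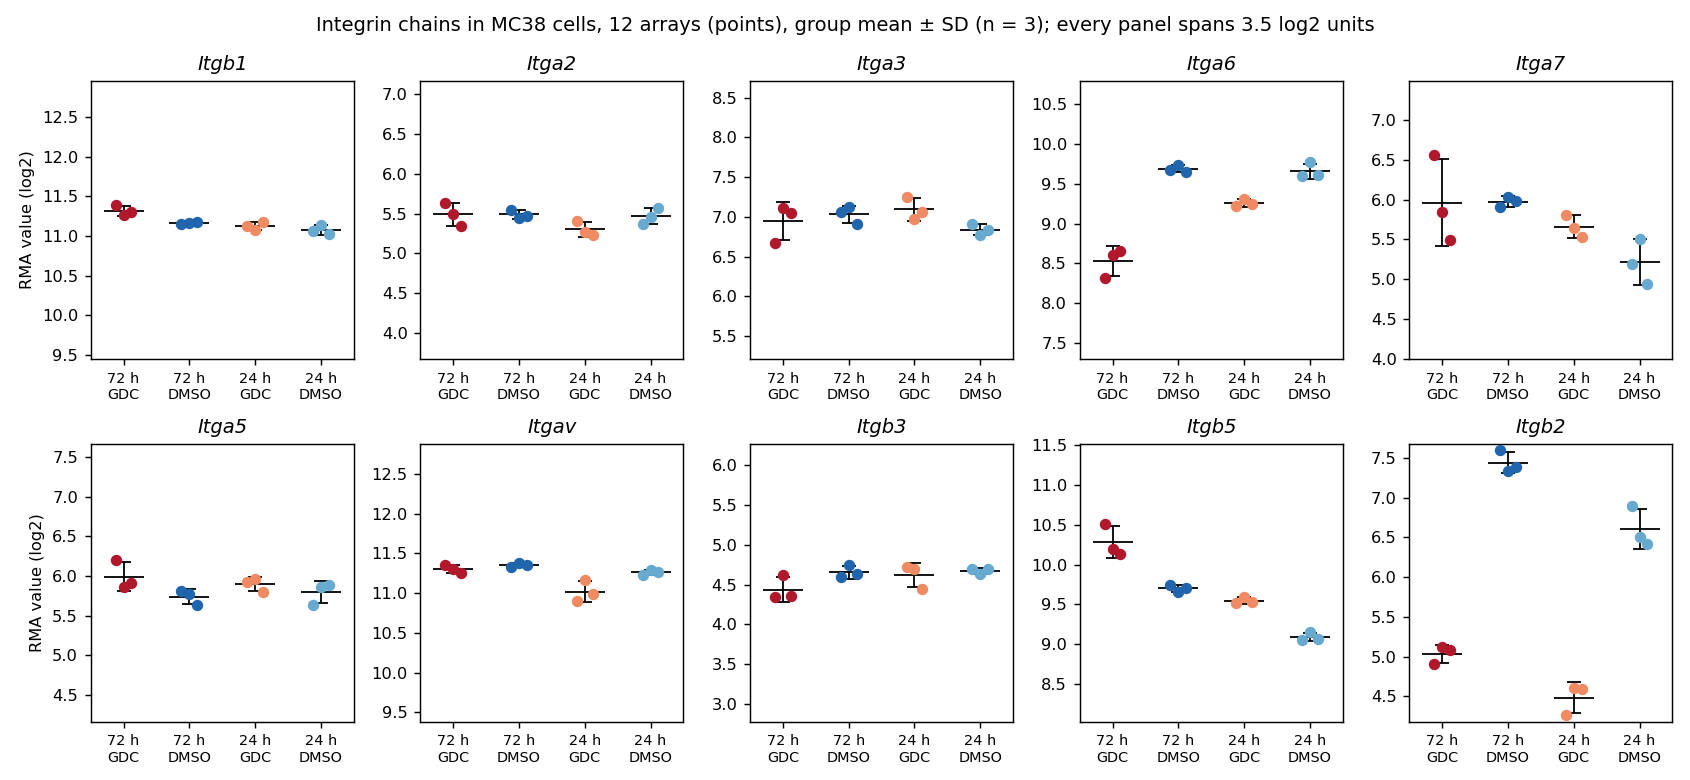
RMA values (log2, vertical axes) of the 10 integrin chains in the 12 arrays; points are arrays, long bars group means and whiskers 1 SD (n = 3), and every panel spans the same 3.5 log2 units. The points of Itgb2 in GDC-0623 lie at 4.26 to 5.12, below all DMSO points at 6.42 to 7.60, while those of Itga2 and Itgb1 lie close together in all groups.

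Among the chains of the collagen and laminin receptors, Itga6 was the only 1 of the 5 called, and it fell more at 72 h than at 24 h. Itga6 (chr2:71786886-71858427, GRCm38.p6) encodes the alpha chain that binds laminin with the chain of Itgb1 or Itgb4. Its values were 8.32, 8.61 and 8.66 in 72 h GDC-0623 arrays, against 9.68, 9.74 and 9.65 in 72 h DMSO arrays. At 24 h they were 9.22, 9.31 and 9.25 in GDC-0623 arrays, against 9.60, 9.77 and 9.61 in DMSO arrays. The groups did not overlap at either time, and the DMSO arrays of both times together spanned 9.60 to 9.77. The log2 fold change was −1.16 ± 0.10 at 72 h (SE, adjusted p = 1.08e-04, 2.23-fold lower) and −0.40 ± 0.07 at 24 h (adjusted p = 0.00556, 1.32-fold lower). The change at 72 h exceeded that at 24 h by −0.76 ± 0.13 on the log2 scale, with a 95% interval of −1.03 to −0.49 (adjusted p = 0.00546, contrast over 12 arrays).

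Itga6 was thus the only 1 of the 10 chains lower in the test of the difference between the effects, and none was higher, beside 1.46% lower and 1.62% higher of all genes. The second probe set of Itga6 moved the same way, by −1.08 ± 0.16 at 72 h (adjusted p = 0.00191) and −0.42 ± 0.10 at 24 h (adjusted p = 0.0203). Its difference between the times, −0.66, did not pass the threshold (adjusted p = 0.151). Without replicate 1 of 72 h GDC-0623, the array that stood apart, Itga6 was lower by 1.06 at 72 h (adjusted p = 1.38e-04) and the difference between the times was −0.66 (adjusted p = 0.00428). When each array was shifted by its hybridization control probe sets, the 24 h change of Itga6 was −0.25 (adjusted p = 0.188).

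The other laminin-binding chains were not called under the drug. Itga7 (chr10:128933421-128958286), the laminin-binding chain best known from muscle, had values of 6.56, 5.84 and 5.49 in 72 h GDC-0623 arrays, against 5.91, 6.04 and 5.98 in 72 h DMSO arrays. At 24 h its values were 5.81, 5.64 and 5.53 in GDC-0623 arrays, against 5.19, 5.51 and 4.94 in DMSO arrays. The groups overlapped at 72 h, where replicate 1 of GDC-0623 was far above the other arrays, and did not overlap at 24 h. The log2 fold change was −0.01 ± 0.22 at 72 h (adjusted p = 0.978) and 0.45 ± 0.14 at 24 h (adjusted p = 0.0519), and without replicate 2 of 24 h DMSO the 24 h difference was 0.60 (adjusted p = 0.0114). Its 95% interval at 72 h, −0.52 to 0.49, leaves room for a change of either sign. Itga7 is read by 1 probe set.

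Itga3 (chr11:95044475-95076844), a laminin-binding chain of epithelial cells, averaged 6.94 ± 0.24 in 72 h GDC-0623 and 7.03 ± 0.11 in 72 h DMSO arrays (SD, n = 3 each). At 24 h it averaged 7.09 ± 0.14 in GDC-0623 and 6.84 ± 0.07 in DMSO arrays, with the lowest GDC-0623 array at 6.97 and the highest DMSO array at 6.91. The log2 fold changes of −0.09 ± 0.12 at 72 h (adjusted p = 0.698) and 0.25 ± 0.09 at 24 h (adjusted p = 0.0800) were not called, and neither were those of its other 2 probe sets. Itga2 (chr13:114833081-114932100), the alpha chain of the collagen receptor, lay between 5.23 and 5.63 on all 12 arrays. Its difference was 0.00 ± 0.09 at 72 h (95% interval −0.20 to 0.20) and −0.16 ± 0.08 at 24 h (−0.35 to 0.02), and it is read by 1 probe set. Itgb1 (chr8:128685654-128733579), the common partner of these alpha chains, had values of 11.39, 11.27 and 11.30 in 72 h GDC-0623 arrays, against 11.15, 11.17 and 11.18 in 72 h DMSO arrays. These 6 values did not overlap, but the difference of 0.15 ± 0.07 was not called (adjusted p = 0.198), nor was that of 0.05 ± 0.07 at 24 h (adjusted p = 0.668). None of the other 5 probe sets of Itgb1 was called, and the next brightest came nearest, at 0.25 for 72 h (adjusted p = 0.0564).

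**Figure D2:**
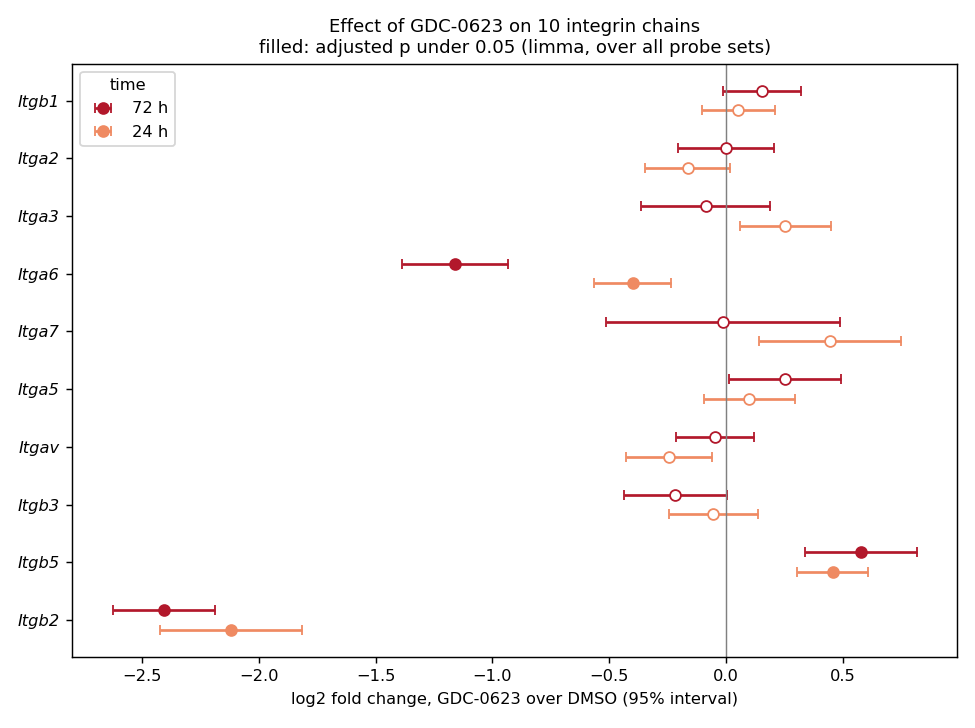
Log2 fold change of GDC-0623 over DMSO (horizontal axis) with its 95% interval for the 10 integrin chains, 72 h above 24 h within each gene; filled points passed an adjusted p of 0.05. The intervals of Itga6 at 72 h (−1.39 to −0.93) and 24 h (−0.57 to −0.23) do not meet. Among the 7 chains with open points, the interval of Itga7 at 24 h (0.14 to 0.75) lies furthest from 0, and most of the others cross 0.

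Among the chains of the fibronectin and vitronectin receptors, Itgb5 rose at both times, and Itga5, Itgb3 and Itgav were not called by their main probe sets. Itgb5 (chr16:33829665-33949338) encodes the beta chain that binds vitronectin together with the chain of Itgav. Its values were 10.51, 10.20 and 10.13 in 72 h GDC-0623 arrays, against 9.74, 9.65 and 9.71 in 72 h DMSO arrays. At 24 h they were 9.51, 9.59 and 9.53 in GDC-0623 arrays, against 9.05, 9.15 and 9.06 in DMSO arrays. Each GDC-0623 array stood above each DMSO array of the same time. The log2 fold change was 0.58 ± 0.11 at 72 h (adjusted p = 0.00473, 1.49-fold) and 0.46 ± 0.07 at 24 h (adjusted p = 0.00171, 1.37-fold). The effects at the 2 times differed by 0.12 ± 0.13, with a 95% interval of −0.15 to 0.40 (adjusted p = 0.725). All 4 probe sets of Itgb5 were called higher at both times, by 0.52 to 0.59 at 72 h and by 0.42 to 0.53 at 24 h. Without replicate 1 of 72 h GDC-0623, the highest of its group for Itgb5, the 72 h change was 0.47 (adjusted p = 0.00585).

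Itgav (chr2:83722303-83806917) encodes the alpha chain that pairs with that of Itgb5. Its values were 11.36, 11.30 and 11.26 in 72 h GDC-0623 arrays, against 11.33, 11.38 and 11.35 in 72 h DMSO arrays. At 24 h they were 10.90, 11.17 and 10.99 in GDC-0623 arrays, against 11.23, 11.29 and 11.27 in DMSO arrays. The groups overlapped at 72 h, and at 24 h all GDC-0623 arrays were below all DMSO arrays. The log2 fold change was −0.05 ± 0.07 at 72 h (adjusted p = 0.730) and −0.24 ± 0.08 at 24 h (adjusted p = 0.0762). The 24 h difference passed the threshold in a fit over all 12 arrays (adjusted p = 0.0397) and, at −0.32, without replicate 2 of 24 h GDC-0623 (adjusted p = 0.0312).

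The second brightest probe set of Itgav was called at 24 h, where its values were 6.38, 6.46 and 6.55 in GDC-0623 arrays, against 7.02, 6.93 and 6.97 in DMSO arrays. At 72 h the same probe set had 7.0, 6.90 and 7.04 in GDC-0623 arrays, against 7.20, 7.12 and 7.01 in DMSO arrays. It was lower by 0.51 on the log2 scale at 24 h (adjusted p = 0.00134), and at 72 h its difference was −0.13 (adjusted p = 0.342). The difference between these effects, 0.38, was not called (adjusted p = 0.0906). The other 3 probe sets of Itgav were not called at either time, with log2 fold changes of −0.28 to −0.12 at 72 h and −0.22 to −0.13 at 24 h.

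Itga5 (chr15:103344286-103366791), the alpha chain of the fibronectin receptor, had values of 6.20, 5.86 and 5.91 in 72 h GDC-0623 arrays, against 5.81, 5.77 and 5.63 in 72 h DMSO arrays. These did not overlap, and the difference of 0.25 ± 0.11 was not called (adjusted p = 0.136). At 24 h its difference was 0.10 ± 0.09 (adjusted p = 0.501), with overlapping groups, and its other 3 probe sets were not called at either time. Itgb3 (chr11:104608000-104670476), the beta chain of the vitronectin and platelet fibrinogen receptors, lay between 4.34 and 4.74 on all arrays, in the background range. Its log2 fold changes were −0.22 ± 0.10 at 72 h (adjusted p = 0.166) and −0.05 ± 0.08 at 24 h (adjusted p = 0.733). Without replicate 2 of 72 h GDC-0623 the 72 h difference of Itgb3 was −0.31 (adjusted p = 0.0491).

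**Figure D3:**
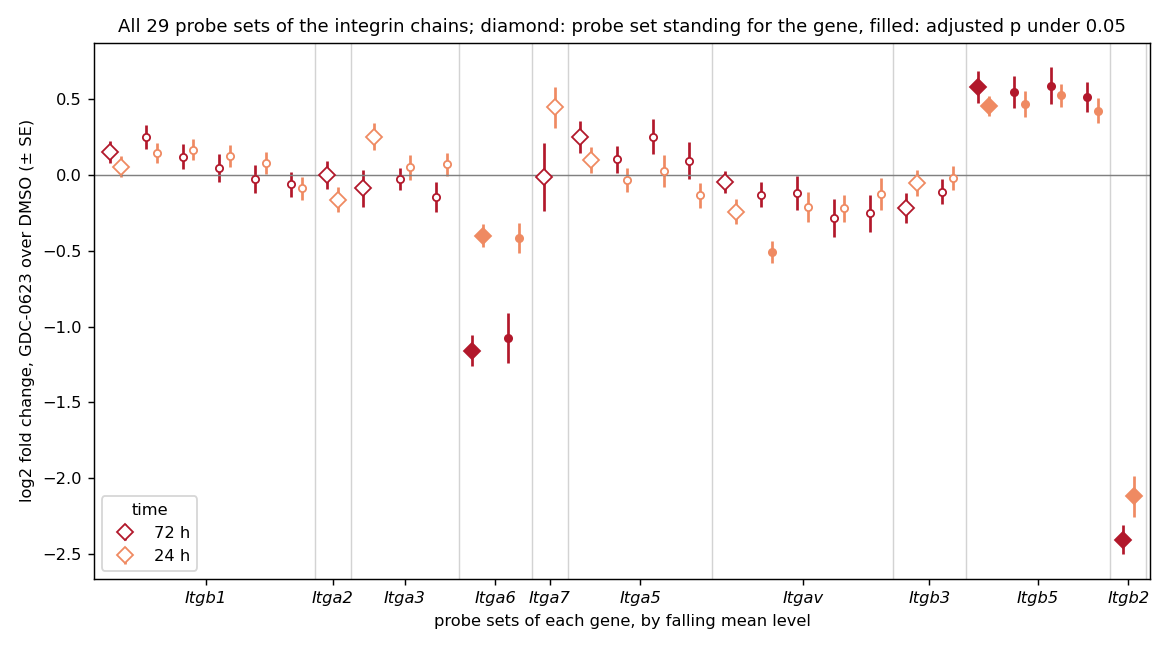
Log2 fold change of GDC-0623 over DMSO (vertical axis, ± SE) for all 29 probe sets of the 10 integrin chains, at 72 h and 24 h; within a gene they run from the highest mean level to the lowest, diamonds mark the probe set that stands for the gene, and filled symbols passed an adjusted p of 0.05. The 4 probe sets of Itgb5 lie above 0 and both of Itga6 below 0 at either time, while only the second probe set of Itgav is filled, at 24 h.

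Itgb2, the leukocyte beta chain, had the largest change of the 10 chains at both times. Itgb2 (chr10:77530329-77565708) had values of 4.91, 5.12 and 5.08 in 72 h GDC-0623 arrays, against 7.60, 7.34 and 7.39 in 72 h DMSO arrays. At 24 h it had 4.26, 4.60 and 4.59 in GDC-0623 arrays, against 6.89, 6.50 and 6.42 in DMSO arrays. The groups were far apart at both times, and the GDC-0623 arrays lay in or next to the background range, where RMA can understate a fold. The log2 fold change was −2.41 ± 0.10 at 72 h (adjusted p = 3.89e-06, 5.30-fold lower) and −2.12 ± 0.14 at 24 h (adjusted p = 1.75e-05, 4.35-fold lower). The effects differed by −0.29 ± 0.18 between the times, with a 95% interval of −0.68 to 0.10 (adjusted p = 0.517).

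Itgb2 is read by a single probe set, so no other probe set bears on it. The genes for its alpha chains stood in the background range in all groups: group means were 4.45 to 4.53 for Itgal, 3.14 to 3.26 for Itgam and 3.98 to 4.25 for Itgax, and none was called under the drug at either time. Itgad was not analysed here. Of the 18 leukocyte markers measured, a list that holds Itgal and Itgam, none had a group mean of 6 or more. Their mean per array was 4.03 to 4.18 in 72 h GDC-0623, 4.09 to 4.15 in 72 h DMSO, 4.10 to 4.17 in 24 h GDC-0623 and 4.15 to 4.20 in 24 h DMSO arrays. Ptprc, which encodes the pan-leukocyte surface protein CD45, stood at 2.75 to 2.91 (group means). The macrophage lysozyme gene Lyz2 and the actin-binding coronin gene Coro1a were called higher at 72 h, by 0.51 and 0.29, and no leukocyte marker was called lower at either time, though 1 was at 24 h with the replicate block and with the filter on dim probe sets. Without replicate 2 of 72 h DMSO neither was called (0.49 and 0.26), and Coro1a was not called without replicate 3 of 72 h DMSO or replicate 1 or 2 of 72 h GDC-0623 either (0.27 to 0.29), nor with its probe sets averaged (0.14).

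With longer culture in DMSO, Itgb2, Itgb5 and Itga7 rose. These 3 chains were higher at 72 h than at 24 h and none was lower, beside 8.41% higher and 5.14% lower of all genes. Itgb2 averaged 7.44 ± 0.14 in 72 h DMSO and 6.60 ± 0.25 in 24 h DMSO arrays (SD, n = 3 each), a log2 difference of 0.84 ± 0.13 (SE, adjusted p = 0.00544). Itgb5 averaged 9.70 ± 0.05 in 72 h DMSO and 9.09 ± 0.06 in 24 h DMSO arrays, a difference of 0.61 ± 0.06 (adjusted p = 0.00103). Itga7 averaged 5.98 ± 0.07 in 72 h DMSO and 5.21 ± 0.29 in 24 h DMSO arrays, a difference of 0.76 ± 0.13 (adjusted p = 0.00850). The arrays of the 2 times did not overlap for any of these 3 genes. Itga6 did not pass the threshold, with a difference of 0.03 ± 0.07 between its DMSO groups (adjusted p = 0.836).

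Under GDC-0623, Itgb2 and Itgb5 were higher and Itga6 was lower at 72 h than at 24 h. These 2 and 1 of the 10 chains stand beside 5.79% higher and 3.11% lower of all genes. Itgb5 averaged 10.28 ± 0.20 in 72 h GDC-0623 and 9.54 ± 0.04 in 24 h GDC-0623 arrays, a difference of 0.74 ± 0.11 (adjusted p = 0.00387). Itga6 averaged 8.53 ± 0.18 in 72 h GDC-0623 and 9.26 ± 0.05 in 24 h GDC-0623 arrays, a difference of −0.73 ± 0.10 (adjusted p = 0.00313). Itgb2 averaged 5.04 ± 0.11 in 72 h GDC-0623 and 4.48 ± 0.19 in 24 h GDC-0623 arrays, a difference of 0.55 ± 0.11 (adjusted p = 0.0183) that was 0.51 without replicate 2 of 72 h GDC-0623 (adjusted p = 0.0532). These Itgb2 values lay in or next to the background range, and the filter on dim probe sets removed Itgb2 from this comparison. Itgav, at 0.29 ± 0.09, missed the threshold by its main probe set (adjusted p = 0.0895), and its second probe set was higher by 0.52 (adjusted p = 0.00683). The time and drug comparisons share arrays, so they are given side by side and were not set against each other.

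The genes whose profiles over the 12 arrays lay nearest to those of the 3 called chains were ranked among 9483 genes with a group mean of at least 6. The measure was the root mean square (RMS) difference between profiles, each centred on its own mean. For Itgb2, whose own profile had an RMS of 1.20, they were Upp1 (uridine phosphorylase) at 0.248, Evi2a at 0.268 and Prkg2 (a cGMP-dependent protein kinase) at 0.289. For Itga6, with an RMS of 0.476, they were Polr3g (a subunit of RNA polymerase III) at 0.105, Nup43 (a nuclear pore protein) at 0.119 and Macir at 0.128. For Itgb5, with an RMS of 0.436, they were P2rx4 (an ATP-gated channel) at 0.0744, Kdm5b (a histone demethylase) at 0.0797 and Asah2 (neutral ceramidase) at 0.100. The log2 fold changes at 72 h were −2.24 for Upp1, −1.12 for Polr3g and 0.54 for P2rx4, and those at 24 h were −2.22 for Upp1, −0.52 for Polr3g and 0.45 for P2rx4. The likeness rests on the same arrays and is a description only.

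**Figure D4:**
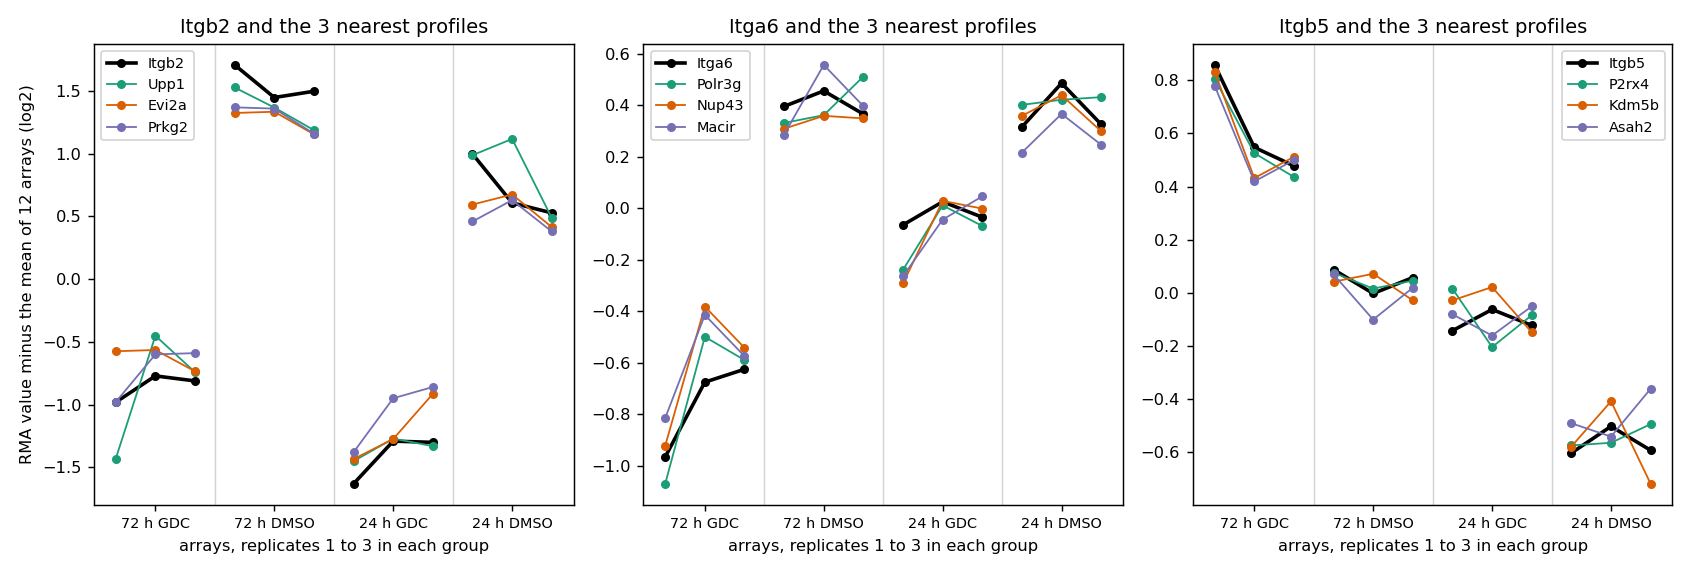
RMA values minus each gene's mean over the 12 arrays (log2, vertical axes) for Itgb2, Itga6 and Itgb5 (black) and the 3 genes nearest to each (colours), by group and replicate; lines only join the arrays of 1 group for the eye. Itgb2 and its neighbours are above 0 in DMSO and below 0 in GDC-0623 arrays, and Itga6 and its neighbours are lowest in the 72 h GDC-0623 arrays.

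Of the other 16 integrin chain genes, 14 were measured, and only Itga1, Itga2b and Itgb8 reached a group mean of 6. At 72 h and at 24 h, 2 of the 14 were higher and none was lower, with list medians of 0.05 and −0.07. The share called higher was near that of all genes, 13.8% at 72 h and 13.3% at 24 h. Of all genes, 12.4% were lower at 72 h and 8.23% at 24 h. Itga1, a collagen-binding alpha chain and partner of Itgb1, averaged 6.40 ± 0.25 in 72 h GDC-0623 and 4.93 ± 0.14 in 72 h DMSO arrays. It rose by 1.47 ± 0.13 at 72 h (adjusted p = 1.19e-04) and by 0.49 ± 0.08 at 24 h (adjusted p = 0.00354), and the change was larger at 72 h by 0.97 ± 0.16 (adjusted p = 0.00619). Only the 72 h GDC-0623 group of Itga1 stood clear of the background range, with means of 5.0 in 24 h GDC-0623 and 4.51 in 24 h DMSO arrays, in or next to that range, where RMA can understate a fold. With the probe sets of Itga1 averaged, its rise at 72 h was 0.83 and the difference between the effects 0.46 (adjusted p = 0.0344). Itgb8, a partner of Itgav that binds latent TGF-beta, averaged 7.11 in 24 h GDC-0623 and 5.56 in 24 h DMSO arrays, a rise of 1.55 ± 0.10 (adjusted p = 2.16e-05). At 72 h it averaged 7.15 in GDC-0623 and 6.59 in DMSO arrays, a difference of 0.57 ± 0.19 that was not called (adjusted p = 0.0664). This difference passed in 4 of 14 alternatives. These were the fit over 12 arrays, the filter on dim probe sets, the shift by hybridization controls and, at 0.74, the omission of replicate 2 of 72 h GDC-0623 (adjusted p = 0.0239). The difference between the effects on Itgb8 at the 2 times was not called. Itgb8 was itself higher at 72 h than at 24 h in DMSO, by 1.03 ± 0.11 (adjusted p = 0.00102). Itga2b, the platelet alpha chain, differed by 0.10 at 72 h and 0.01 at 24 h and was not called. Itgb6, the other gene called at 72 h, was at 3.03 in GDC-0623 and 2.69 in DMSO arrays, in the background range, and was not called without replicate 1 or 2 of 72 h DMSO or replicate 2 of 72 h GDC-0623 (0.29 to 0.33), nor with its probe sets averaged (0.14). Without replicate 2 of 24 h DMSO or replicate 1 of 24 h GDC-0623, 1 of the 14 was lower at 24 h, and so was 1 at 72 h with the replicate block.

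Genes that link integrins to the cytoskeleton rose more often than they fell. Of 26 activators and linkers, 11 were higher and 1 was lower at 72 h (median 0.28), and 12 were higher and 1 was lower at 24 h (median 0.22). Of all genes, 13.8% were higher and 12.4% lower at 72 h, and 13.3% were higher and 8.23% lower at 24 h. Talin 1 (Tln1), which switches integrins on, rose by 0.73 at 72 h and 0.41 at 24 h by its brightest probe set, but was not called with its probe sets averaged (0.25 and 0.18). Vinculin (Vcl), which ties talin to actin, rose by 0.55 at 72 h. Integrin-linked kinase (Ilk) rose by 0.65 at 72 h and 0.63 at 24 h. The tensin genes Tns2 (1.36 at 72 h and 1.22 at 24 h) and Tns1 (1.81 at 72 h) and the talin-binding Kank2 (1.25 at 72 h and 1.07 at 24 h) rose most. Parvb, an actin-binding partner of integrin-linked kinase, fell by 1.10 at 72 h and by 1.18 at 24 h, where averaging its probe sets gave −0.73.

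Of 17 adhesion kinases and scaffolds, 4 were higher and 2 were lower at 72 h, against 3 higher and none lower at 24 h. These counts stand beside 13.8% higher and 12.4% lower of all genes at 72 h, and 13.3% and 8.23% at 24 h. Tgfb1i1 (the paxillin relative Hic-5) rose by 0.87 at 72 h and 1.28 at 24 h, and the caveolin gene Cav1 by 0.66 and 0.50. The tyrosine kinase gene Src fell by 0.43 at 72 h, and Fyn, of the same kinase family, rose by 0.53 at 24 h. The number of lower genes at 72 h was 1 without replicate 1, 2 or 3 of 72 h DMSO or replicate 2 of 72 h GDC-0623. It was 4 in the fit over 12 arrays, with the filter on dim probe sets and with the trended, robust prior. With the probe sets of a gene averaged, 4 were higher and 2 were lower at 24 h, and the 24 h median of 0.11 became −0.02. The gene of FAK, Ptk2, was not analysed here.

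Among the matrix ligands of integrins, 14 of 25 were higher and 1 was lower at 72 h, with a median of 0.91, beside 11 higher and 1 lower at 24 h, with a median of 0.11. The call rate over all genes was 13.8% higher and 12.4% lower at 72 h, and 13.3% and 8.23% at 24 h. The 24 h median was 0.06 without replicate 1 and 0.18 without replicate 3 of 24 h GDC-0623, and with the filter on dim probe sets the medians were 1.04 at 72 h and 0.68 at 24 h. Periostin (Postn), a ligand of Itgav integrins, rose by 4.74 ± 0.33 at 72 h, and the connective tissue growth factor gene Ccn2 rose by 3.70 ± 0.23. Thrombospondin 1 (Thbs1) rose by 2.26 and the laminin chain gene Lama4 by 2.39 at 72 h, the rise of Lama4 being 1.44 with its probe sets averaged. At 24 h the rises were 1.82 for the collagen gene Col6a1, 1.60 for Postn, 1.58 for Ccn2 and 1.45 for the collagen gene Col1a2. Lamb1, the laminin beta chain gene, fell by 1.11 at 72 h and by 1.60 at 24 h, and Lamb2 rose by 1.83 at 72 h and 1.31 at 24 h. Fibronectin (Fn1) rose by 1.23 at 72 h and 0.69 at 24 h. Without replicate 3 of 24 h GDC-0623, 2 ligand genes were lower at 24 h.

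Of the 13 cell surface and latent TGF-beta ligands, 3 were higher and 1 was lower at both times. Over all genes, the rates for this list and the next were 13.8% higher and 12.4% lower at 72 h, and 13.3% and 8.23% at 24 h. Icam1, the ligand of the Itgb2 integrins, was higher by 1.00 at 72 h. Its probe set was dim, however, and did not pass the filter on dim probe sets at either time. Vcam1, a ligand of other leukocyte integrins, was higher by 0.83 at 72 h and by 0.35 at 24 h, where it was not called without replicate 1 or 3 of 24 h DMSO (0.32). Tgfb3 was higher by 0.99 at 72 h and 1.73 at 24 h, and Ltbp1, which tethers latent TGF-beta to the matrix, was lower by 1.13 and 0.69 (−0.68 and −0.41 with its probe sets averaged). Without replicate 1 of 24 h DMSO, 1 gene of this list was higher at 24 h. Of 14 lateral partners, 5 were higher and 5 were lower at 72 h, against 4 higher and 4 lower at 24 h. The tetraspanin gene Cd81 (1.01 at 72 h and 1.05 at 24 h) and the Itgav partner gene Cd47 (1.04 and 0.67) rose. Plaur, the urokinase receptor gene, fell by 1.61 at 72 h and by 1.24 at 24 h. The number of lower partners at 72 h was 2 without replicate 1 or 3 of 72 h DMSO and 3 without replicate 2. At 24 h it was 1 without replicate 2 of 24 h DMSO and 2 without replicate 1 of 24 h GDC-0623.

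**Figure D5:**
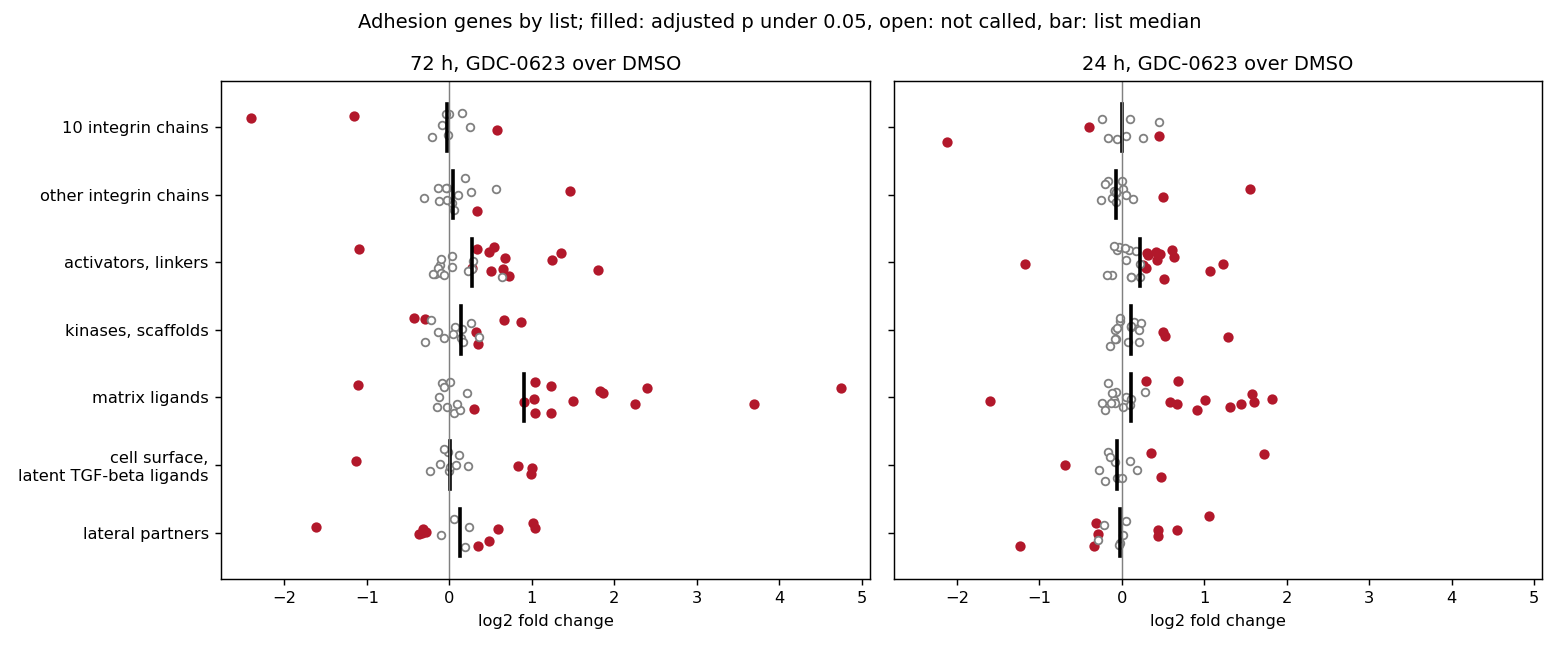
Log2 fold change of GDC-0623 over DMSO (horizontal axes) at 72 h and at 24 h for the 10 integrin chains and 6 lists of adhesion genes; each point is a gene, filled red points passed an adjusted p of 0.05, and black bars are list medians. The matrix ligands spread furthest to the right at 72 h, with a median of 0.91, and the bar of the 10 integrin chains stands at −0.03.

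Of the 11 mesenchymal markers, 6 were higher and none was lower at both times, with medians of 0.37 at 72 h and 0.34 at 24 h. All genes were called higher at 13.8% and lower at 12.4% at 72 h, and at 13.3% and 8.23% at 24 h. Their mean per array was 9.81 to 10.17 in 72 h GDC-0623, 9.10 to 9.15 in 72 h DMSO, 9.55 to 9.62 in 24 h GDC-0623 and 8.95 to 9.06 in 24 h DMSO arrays. The smooth muscle actin gene Acta2 rose by 3.58 at 72 h and 2.45 at 24 h, or by 1.23 and 0.87 with its probe sets averaged. Pdgfrb, a receptor of platelet-derived growth factor, rose by 1.29 and 2.15. Itgb5 was also higher under GDC-0623 at both times, and more matrix ligands were higher than lower. With time in DMSO, Itgb5 rose by 0.61. In that comparison 3 of the 11 mesenchymal markers were higher and 1 was lower, with a median of 0.06. Of all genes, 8.41% were higher and 5.14% lower with time in DMSO. The part of these markers in the results for Itgb5 and the matrix ligands was not tested. Fn1 is in this list and among the matrix ligands. Of the 8 endothelial and 4 platelet markers none was called at either time. Of the 11 epithelial markers, none was higher and 1 was lower at each time, with medians of −0.06 at 72 h and −0.07 at 24 h. The 1 lower at 72 h was the keratin gene Krt8, at 4.90 in GDC-0623 and 5.30 in DMSO arrays. It was lower by 0.40 (adjusted p = 0.0133) and was not called without replicate 3 of 72 h DMSO (−0.36). At 24 h Krt8 differed by −0.07 and was not called. The marker lower at 24 h was another gene, and its call was not kept in every alternative.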

How the data were processed

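Mouse GeneChip arrays (Affymetrix) were hybridised with biotin-labelled RNA of 12 samples. The authors deposited log2 values made by RMA (background correction, quantile normalisation between arrays, and 1 summary value per probe set). Its version is not given in the sources used here. This normalisation removes a shift shared by most genes, and no detection call comes with the values. The number of arrays limits the precision.

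The table held 45101 probe sets. The 64 control probe sets were left out and 45037 were tested, of which 34945 had 1 gene symbol, 932 had several and 9160 had none in the annotation used. Symbols were updated by gene identifier for 34741 probe sets, and the brightest probe set stood for each of 18193 genes. Columns of values that were not used numbered 0. Loci and promoter sequences are those of RefSeq (GRCm38.p6).

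Groups were compared with limma 3.58.1 in R 4.3.3 (lmFit and eBayes, two-sided) on the 6 arrays concerned, and the difference of effects as a contrast on 12 arrays. Adjusted p-values are from these fits, or from an alternative where the text names it beside the value. Benjamini-Hochberg adjustment was over all probe sets, or over 18193 genes where probe sets were averaged, with a threshold of 0.05. Call rates of all genes count 1 probe set per gene. An error after a fold change is its standard error, and an interval is the 95% interval of the fit. The fits were tested on simulated data, in which 67 of 45037 probe sets were changed by 0.5 on the log2 scale and 67 by 1. Of the changes of 0.5, 37.3% were recovered at 72 h and at 24 h, and 22.4% for the difference of effects. Of the changes of 1, 97% were recovered at 72 h and 92.5% at 24 h. A change of about 0.5 can thus go uncalled. The simulation changed a far smaller share of probe sets than the share of genes called in the drug comparisons. Its adjustment was therefore stricter than in the data, and its rates may be too low for the drug comparisons. P-values measure the spread between the arrays of a group, about whose cultures nothing more is stated.

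The members, lists and rules were chosen with earlier results of these data known. Named were all 10 members, per list and drug comparison up to 4 called genes with the largest change, without overlap and with a mean of at least 6 in the higher group, any other integrin chain reaching 6, and the 3 nearest profiles of each called member. Lyz2, Coro1a, Krt8, Tln1, Vcl, Icam1, Lamb2, Itgb6 and the marker genes of lineage were named outside this rule, with their values seen. Figures were drawn with matplotlib 3.10. Alternatives were 1 fit over 12 arrays, a replicate block, quantile normalisation once more, a shift by hybridization controls, a filter on dim probe sets (5 or more on at least 3 arrays), a prior with trend and robust fit, averaged probe sets per gene, a minimum fold of 2 and the omission of each array. They were applied to the lists after the data were seen. Other background corrections and scan batches were not run, because scanner files were not used here, and no pseudocount was needed on log2 values.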

Additional observations from a re-analysis of the deposited data

Results flagged for a closer look

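The following genes differed between 72 h and 24 h in their response to GDC-0623 by the contrast over 12 arrays (limma, 3 arrays per group, adjusted over all probe sets). Itga6 fell more at 72 h, with a difference of −0.76 (adjusted p = 0.00546; −1.16 at 72 h and −0.40 at 24 h). Itga1 rose more at 72 h, with a difference of 0.97 (adjusted p = 0.00619; 1.47 at 72 h and 0.49 at 24 h) that was 0.46 with its probe sets averaged, and its other 3 groups stood at or below about 5, in the background range. Of the matrix ligand genes, Postn differed by 3.14 (adjusted p = 8.58e-04), Ccn2 by 2.11 (adjusted p = 0.00164), Lama4 by 2.11 (adjusted p = 0.00643; 1.23 with its probe sets averaged) and Thbs1 by 1.35 (adjusted p = 4.39e-04), each with the larger rise at 72 h. Tgfb3 rose less at 72 h, with a difference of −0.74 (adjusted p = 0.00670; 0.99 at 72 h and 1.73 at 24 h). Cspg4, a chondroitin sulfate proteoglycan gene, was lower at 72 h (−0.37) and higher at 24 h (0.44), a difference of −0.81 (adjusted p = 0.0122), but its rise at 24 h was lost without replicate 2 or 3 of 24 h DMSO or replicate 1 of 24 h GDC-0623 (0.36 to 0.42), and its fall at 72 h without replicate 1 or 3 of 72 h DMSO or replicate 1 or 2 of 72 h GDC-0623 (−0.39 to −0.29) or with its probe sets averaged (−0.22). Groups of 3 arrays were not searched for outlying samples.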

How the results depend on the processing

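No called change of the 10 chains turned its sign under any alternative run. Itgb2 was lower under GDC-0623 in all 14 alternatives at 72 h (−2.46 to −2.33) and at 24 h (−2.21 to −1.97), and so was Itga6 at 72 h (−1.23 to −1.06). Itgb5 was higher in all but the minimum fold of 2, at 0.47 to 0.66 at 72 h and 0.43 to 0.61 at 24 h. The difference of the Itga6 effects kept its call in 18 of 19 alternatives (−0.90 to −0.66). At 24 h, the count of 1 higher chain became 3 with the filter on dim probe sets, 3 with the shift by hybridization controls and 3 with the trended, robust prior, each time Itgb5, Itga3 and Itga7. It became 2 with probe sets averaged per gene, and 1 to 2 with 1 array left out (2 without replicate 2 of 24 h DMSO, Itgb5 and Itga7). The 2 lower chains at 24 h became 1 with the shift by hybridization controls, and 2 to 3 with 1 array left out. That shift moved the median of all genes by 0.15 at 24 h and by 0.01 at 72 h. With a minimum fold of 2 the counts of higher chains were 0 at 72 h, 0 at 24 h, 0 for time in DMSO and 0 for time in GDC-0623, and those of lower chains were 1 at 24 h, 0 for time in GDC-0623 and 0 for the difference of effects. For time in GDC-0623, the 2 higher chains became 1 with the filter on dim probe sets, which removed Itgb2, and 1 to 2 with 1 array left out. The filter passed 9 of 10 chains in the drug comparisons, without Itgb3. Values of chains uncalled both ways changed sign 3 times at 24 h and 4 times at 72 h. Over the same alternatives, applied to the lists after the data were seen, 3 to 13 activators and linkers were higher at 72 h and 2 to 15 at 24 h, and 12 to 14 matrix ligands at 72 h and 6 to 12 at 24 h. Of the adhesion kinases and scaffolds, 0 to 6 were higher at 72 h and 1 to 6 at 24 h. Lower were 0 to 4 of them at 72 h and 0 to 2 at 24 h. With the shift by hybridization controls the 24 h medians of the other integrin chains and the lateral partners were 0.08 and 0.13. No called change of a gene named from a list turned its sign. Samples with the same replicate number deviated together only weakly (r = 0.06, 0.09 and 0.14 at 72 h, and 0.09, 0.12 and 0.01 at 24 h), so the numbers were not taken as pairs. The replicate block gave 2 higher chains at 24 h, Itgb5 and Itga7 (adjusted p = 0.0349), and changed no other count of chains by over 1.5 times. Probe sets in the background range limit what can be read for Itgb3, for Itgb2 under GDC-0623 and for most of the other integrin chains.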
